A study of Mus musculus with 4 samples.

Results

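Glutathione transferases and the enzymes of antioxidant defense were followed in liver RNA as a list of 36 genes named by symbol, which are 36 of the 46603 Ensembl genes counted. Their rule used no measured value, but the members were chosen with earlier results of these data known. All 36 passed the filter on low counts that kept 13001 genes for testing. The livers came from 4 male mice kept for 4 weeks on WDSW, a Western diet with fructose and glucose in the drinking water. Control is the label of mice 1 and 2, and HuR hKO, a deletion of the RNA-binding protein HuR in hepatocytes, is that of mice 3 and 4. According to the labels, the HuR hKO mice were HuR flox/flox animals on a C57BL/6 J background given an adeno-associated virus (AAV8) with Cre recombinase under the hepatocyte promoter TBGP. The control mice were given AAV8-TBGP-GFP, and the labels do not name their alleles apart from the word control or give the age of the mice. Each library was made from whole liver, so RNA of cells in which this Cre is not driven was counted too, and fewer cells of a type and less RNA per cell cannot be told apart. The question of the comparison was how loss of HuR in hepatocytes changes the liver transcriptome under this diet.

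Glutathione transferases join the thiol of glutathione to reactive compounds, which makes these compounds soluble and ready for export, and the liver is the main organ of this work. Glutathione is built from glutamate, cysteine and glycine, is oxidized when peroxidases use it, and is reduced again with NADPH, in parallel with the thioredoxin system. Many of these genes are induced by the transcription factor NRF2, which KEAP1 holds back in unstressed cells and which binds antioxidant response elements when electrophiles or oxidants modify KEAP1.

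The libraries held between 13032095 and 19715577 counts on genes, and levels are given below as CPM, the count of a gene relative to the library size after scaling by edgeR's TMM factors. A count of 0 would allow between 0.159 and 0.226 CPM, far below the level of every member, and intervals of this kind cover counting error only. Elavl1, the gene of HuR, had 377 and 347 counts in the control livers and 541 and 648 in the livers labelled HuR hKO. This is a log2 fold change of 0.41 (standard error, SE, 0.135, edgeR adjusted p = 0.545), and between 0.33 and 0.48 with each mouse left out. The count of the targeted gene thus goes against the label, and every direction below is that of the labels. It is a count over the whole gene in whole liver, with RNA of cells in which this Cre is not driven. It therefore does not measure the deletion in hepatocytes itself. Why the Elavl1 count was higher in the livers labelled HuR hKO was not tested. Hepatocyte markers were abundant in every liver, with 9 markers summing to between 70819 and 80061 CPM. Of the 5 erythroid markers tested, 3 did not overlap between groups and were higher in the livers labelled HuR hKO, against 19.3% of all genes tested. The summed level of the 6 on the list was 363.2 and 450.5 CPM in control and 488.5 and 710.9 CPM in the livers labelled HuR hKO. Summed markers of Kupffer cells (8 genes, 167 and 173 against 195.1 and 179.7 CPM), endothelial cells (6 genes, 179 and 158 against 205.6 and 186.2 CPM) and stellate cells (7 genes, 204.3 and 209.6 against 225.3 and 279.7 CPM) also did not overlap. Of their genes, 3, 3 and 4 were apart in the higher direction, against 19.3% of all genes tested. The fitted log2 fold change was below 0 for 3 Kupffer cell markers (down to -0.92), 0 endothelial markers and 1 stellate marker. The 6 cholangiocyte markers summed to 56.0 and 28.1 CPM in control and to 40.5 and 50.8 CPM in the livers labelled HuR hKO, which overlap. Neutrophil markers (6 genes, 1 of them tested) were scarce and lower without overlap, at 2.18 and 2.31 against 1.95 and 1.54 CPM. Sums of B-cell markers (5 genes, 4.06 and 31.3 against 18.5 and 21.1 CPM) overlapped. So did those of T and NK cells (7 genes, 2.48 and 3.14 against 3.07 and 3.66 CPM). Of 10 genes with a female bias in mouse liver, 4 were tested and 3 passed the study threshold defined below in the higher direction, against 1.21% of all genes tested. The 10 genes summed to 10.7 and 17.6 CPM in control and to 54.5 and 50.6 CPM in the livers labelled HuR hKO, although the labels give all mice as male. A1bg of that list was at 0 in every library. A list of 11 genes with a male bias summed to 9838 and 6407 CPM in control. In the livers labelled HuR hKO it summed to 9681.4 and 7919.5 CPM, so the sums overlapped. Of these 11 genes, 0 passed the study threshold in the higher direction and 1 in the lower, against 0.915% of all genes. Their median log2 fold change was -0.267, with 3 fitted above 0 and 8 below. The groups were apart for 1 of them in the higher direction and for 4 in the lower, against 19.3% and 18.8% of all genes tested. By edgeR's quasi-likelihood test 0 higher and 3 lower had an unadjusted p-value under 0.05, against 4.04% and 3.39%. Further lists held targets of the receptors CAR and PXR, some of them also on the female-biased list, and acute phase, pericentral and periportal genes. The study threshold was passed in the higher direction by 2 of 9, 4 of 16, 1 of 10 and 1 of 10 of these genes, against 1.21% of all genes tested. In the lower direction 0 passed, against 0.915%. The summed level of each of these lists overlapped between the groups. The part of these markers and lists in the results below was not tested.

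The members that passed a threshold without adjustment were all cytosolic glutathione transferases. The study threshold, a fold change of at least 1.8 with an unadjusted p-value under 0.05, was passed by 2 of the 36, Gstt2 and Gstm3, both higher in the livers labelled HuR hKO, against 1.21% of all genes tested. It was passed by 0 members in the lower direction, against 0.915% of all genes. By edgeR's quasi-likelihood test, 3 members with a higher level had an unadjusted p-value under 0.05 (Gstt2, Gstm2 and Gstm3), against 4.04% of all genes, and so had 1 with a lower level (Gsta4), against 3.39%. With Benjamini-Hochberg adjustment over all genes, 0 members were under 0.05 in edgeR, against 0.0231% of all genes, and the smallest adjusted p was 0.215 for Gstt2. DESeq2's Wald test gave 1 member under 0.05 after adjustment, which was Gstt2 (adjusted p = 0.000392), against 0.654% of all genes in that test, and limma-voom gave 0, against 0.0154%. In edgeR without the low-count filter Gstt2 was the 1 member under 0.05 as well, against 0.751% of the genes then tested.

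The rest of the list lay close to 0. The fitted log2 fold change was above 0 for 23 members and below 0 for 13, and it was smaller than 0.5 in size for 33 of the 36, as it was for 11523 of the 13001 genes. The median over the members was 0.023, beside 0.002 over all genes tested. The groups did not overlap for 9 members with a higher level in the livers labelled HuR hKO, against 19.3% of all genes, and for 3 with a lower level, against 18.8%. The 9 were Gstm2, Gstm3, Gstt2, Mgst3, Gpx1, Gss, Prdx1, Srxn1 and Ephx1, and the 3 were Gsta4, Txnrd1 and Cat. Single mice set several of these numbers. Without control mouse 1 the members above 0 were 15 and the median was -0.068, and without control mouse 2 the median was 0.212. Without control mouse 2 the members past the study threshold were 4, namely Gstt2, Gstm2, Gstm3 and Nqo1, whereas without control mouse 1 or without mouse 3 Gstt2 alone passed. For a single gene the smallest two-sided p of an exact permutation test over 2 against 2 mice is 0.333, and the values by edgeR borrow the spread of other genes.

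**Figure D1:**
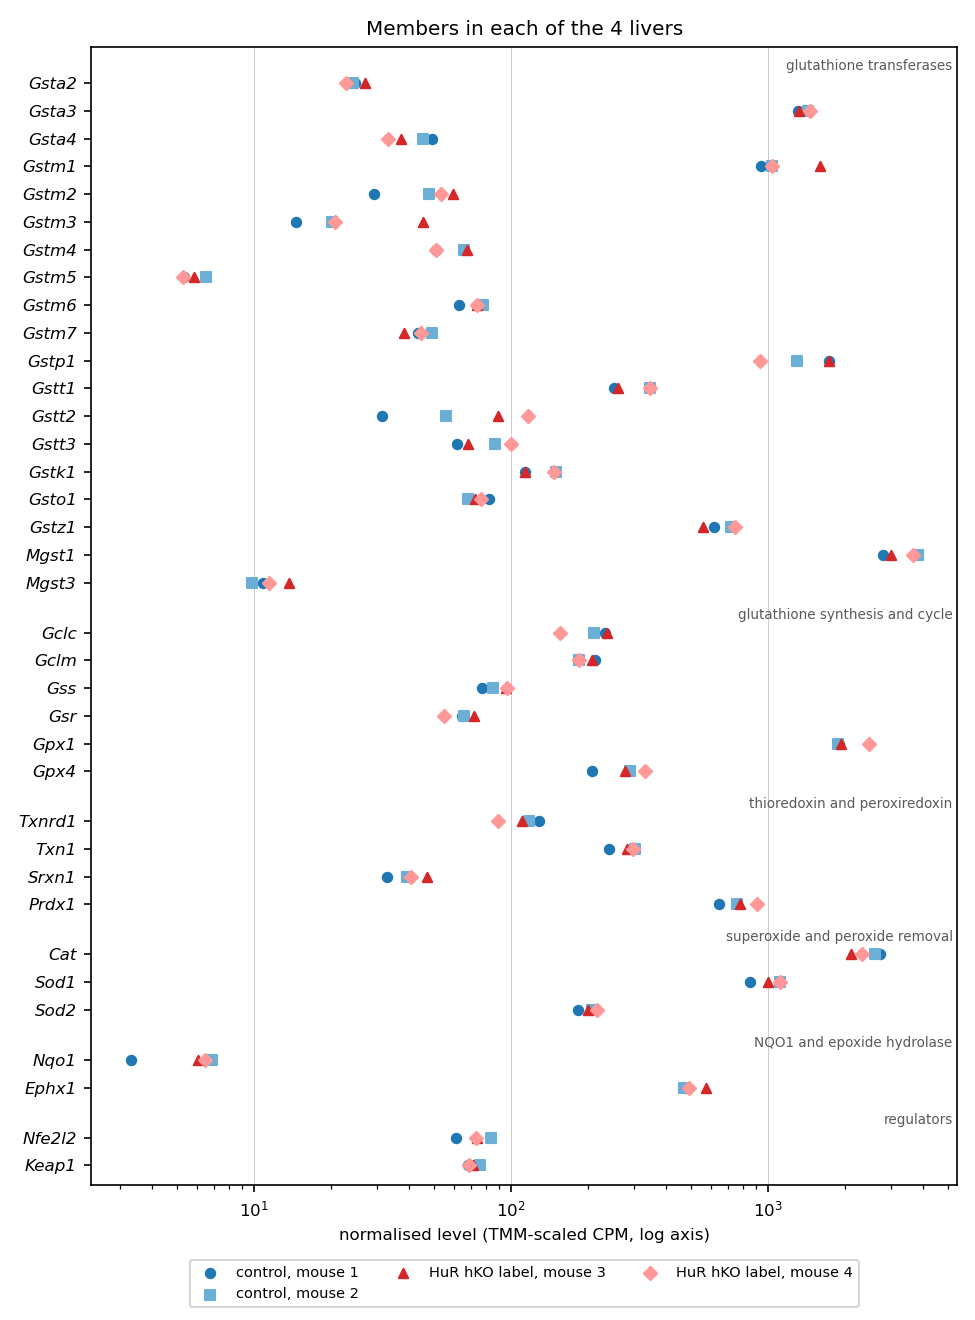
The normalised level (TMM-scaled CPM, log axis) of each of the 36 members is plotted for each of the 4 livers, with rows grouped by role and one symbol for each mouse. The symbols of most genes lie close together, while those of Gstt2 and Gstm3 are spread over 3.71-fold and 3.11-fold between the lowest and the highest liver.

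**Figure D2:**
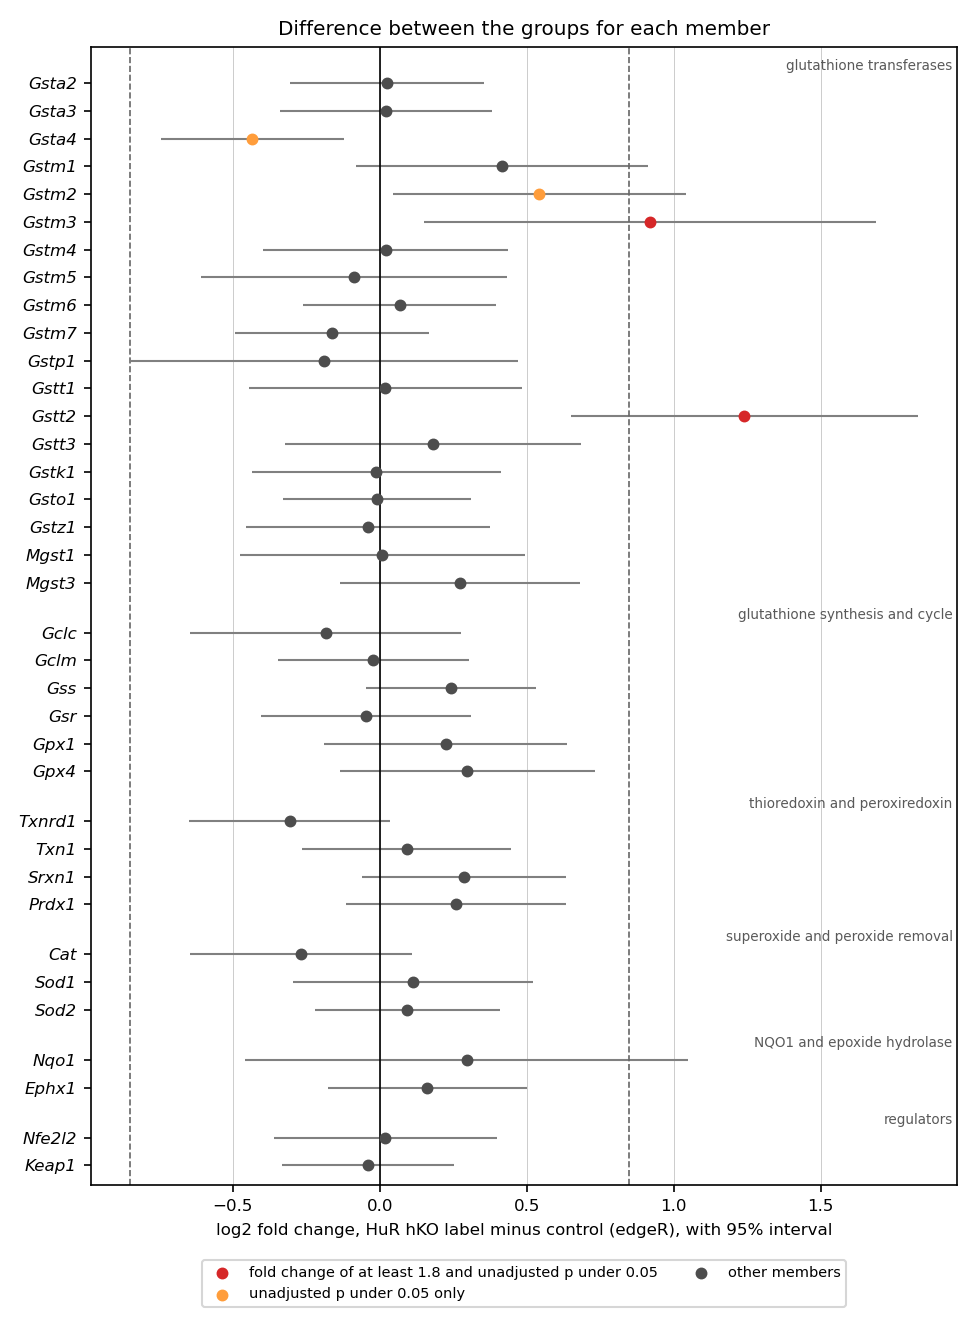
Points give the edgeR log2 fold change of the livers labelled HuR hKO minus control, bars give its 95% interval, and dashed lines mark a fold change of 1.8 in either direction. The intervals of Gstt2, Gstm2, Gstm3 and Gsta4 do not reach 0, and those of the other members do.

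Compared per kilobase of exon, the members spanned a wide range of abundance in liver. Averaged over the 4 livers, Mgst1 led with 1652 CPM per kb, followed by Gpx1 with 1413 CPM per kb. Cat (933 CPM per kb), Gstp1 (918 CPM per kb) and Gstm1 (784 CPM per kb) came next, and their ranges over the mice overlapped. Gsta3 stood sixth with 317.7 CPM per kb, and Gstt2, at 17.6 CPM per kb, and Gstm3, at 19.2 CPM per kb, were among the scarce members. The least abundant were Gstm5 with 4.50 CPM per kb and Nqo1 with 3.65 CPM per kb. The 36 genes together took 16338 CPM in control mouse 1, 17858 in control mouse 2, 17254 in mouse 3 and 17852 in mouse 4, which is between 1.67% and 1.79% of the counts. The sum of mouse 1 was the lowest, and those of mice 2 and 4 were nearly equal across the group labels. Exon lengths are those of all transcripts of a gene laid together, so a gene with a long minor transcript is placed too low in this order.

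The theta class held the member with the largest difference. Theta transferases are an ancient class with a serine in the active site, active on small halogenated compounds and sulfate esters. The 3 theta genes of the list, Gstt3, Gstt1 and Gstt2, lie within 63.3 kb of chromosome 10 (GRCm38, GENCODE M21). Gstt2, on the minus strand at chr10:75831114-75837424, had 418 and 748 counts in control mice 1 and 2 and 1280 and 2199 counts in mice 3 and 4. On the CPM scale it was at 31.5 and 55.8 in control and at 89.3 and 116.7 in the livers labelled HuR hKO, which is 43.6 ± 17.2 against 103 ± 19.4 (SD, n = 2 each). Both livers labelled HuR hKO were above both control livers, and the control livers themselves differed by 0.83 on the log2 scale. The groups differed 2.36-fold, which is 1.24 on the log2 scale (SE 0.257, 95% interval 0.65 to 1.83, edgeR adjusted p = 0.215). When single mice were left out it lay between 0.87, without control mouse 1, and 1.71, without control mouse 2. Of the 50-base windows of its transcripts, 0.636% also occur in another gene.

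For the other theta members the groups overlapped. Gstt1 was at 251.5, 348.1, 260.2 and 347.4 CPM in mice 1 to 4, so that mouse 3 resembled control mouse 1 and mouse 4 resembled control mouse 2. Its log2 fold change was 0.02 with a 95% interval from -0.44 to 0.48. Gstt3 was at 61.6, 87.0, 68.3 and 99.9 CPM, again with mice 1 and 3 low and mice 2 and 4 high, and had a log2 fold change of 0.18 with an interval from -0.32 to 0.69. The interval of Gstt2 begins at 0.65 and overlaps slightly with that of Gstt3, and the difference between the genes was not tested. Of the transcript windows of Gstt3, 12.2% also occur in Gm20441, a gene model that overlaps it on the same strand and had 0 counts in every library.

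Of the 7 mu genes, Gstm1, Gstm2, Gstm3 and Gstm4 had their highest level in mouse 3, and Gstm5, Gstm6 and Gstm7 in control mouse 2. Mu transferases conjugate aromatic epoxides and other electrophiles, and Gstm1 is the main mu enzyme of mouse liver. These genes lie within 149 kb of chromosome 3, in the order Gstm5, Gstm7, Gstm6, Gstm3, Gstm2, Gstm1 and Gstm4. Their summed level was 1147 and 1308 CPM in control mice 1 and 2, 1891 CPM in mouse 3 and 1289 CPM in mouse 4, so mouse 3 stood above the other 3 livers and mouse 4 lay between the control mice, and most of each sum was Gstm1.

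Gstm3, on the minus strand at chr3:107963696-107969283, had 194, 270, 650 and 391 counts in mice 1 to 4. Its level was 14.6 and 20.2 CPM in control and 45.3 and 20.8 CPM in the livers labelled HuR hKO. Mouse 4 exceeded control mouse 2 by a small margin, and mouse 3 carried most of the difference. With all mice the log2 fold change was 0.92 (SE 0.334, edgeR adjusted p = 0.577), and it was 0.24 without mouse 3 and 1.38 without mouse 4. Of its transcript windows, 28.8% also occur in other genes, among them the pseudogene Gm8834 with 16%, so its count depends on how such reads were assigned.

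Gstm2, at chr3:107981702-107986453, was at 29.4 and 48.1 CPM in control and at 59.4 and 53.5 CPM in the livers labelled HuR hKO. Here both livers labelled HuR hKO were higher, and control mouse 1 stood apart as the low one. On the log2 scale the groups differed by 0.54 (SE 0.217, edgeR adjusted p = 0.631), and this value was 0.22 without control mouse 1 and 0.94 without control mouse 2. Its unadjusted p-value stayed under 0.05 without control mouse 2 and was above it without mouse 1, 3 or 4. Gstm1, at chr3:108012255-108017973, had 940 and 1040.5 CPM in control and 1601.3 and 1039.2 CPM in mice 3 and 4, so mouse 3 alone was above the control range. Its log2 fold change of 0.41 had a 95% interval from -0.08 to 0.91 and was 0.05 without mouse 3. Of its windows, 18.9% also occur in other genes, among them the pseudogene Gstm2-ps1 with 14.1%, which had between 14 and 39 counts.

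The other mu genes did not separate the groups. Gstm4 was at 51.1, 65.7, 67.5 and 51.1 CPM in mice 1 to 4, the same in mice 1 and 4, with a log2 fold change of 0.02. Gstm6 ranged from 62.9 to 77.9 CPM (0.07), Gstm7 from 38.2 to 49.2 CPM (-0.16) and Gstm5 from 5.31 to 6.49 CPM (-0.09). Their 95% intervals all held 0, and the widest, that of Gstm5, ran from -0.61 to 0.43.

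In the alpha class, the abundant gene was level and a scarcer one was lower. Alpha transferases reduce lipid peroxides and conjugate products of lipid peroxidation, and GSTA4 has a preference for 4-hydroxynonenal. Gsta3, the most abundant of the 3 alpha members, was at 1308.7, 1429.7, 1321.0 and 1460.2 CPM in mice 1 to 4, with a log2 fold change of 0.02 and a 95% interval from -0.34 to 0.38. Gsta4, on chromosome 9 at chr9:78182774-78209349, was at 49.4 and 45.6 CPM in control and at 37.2 and 33.2 CPM in the livers labelled HuR hKO. Both of those livers were below both control livers, and the mice within a group differed by at most 0.16 on the log2 scale. Gsta4 had a log2 fold change of -0.43 (SE 0.135, edgeR adjusted p = 0.511), between -0.53 and -0.35 with each mouse left out, its unadjusted p-value was above 0.05 without mouse 4, and no window of its transcripts occurs in another gene. Gsta2 was at 24.7, 24.3, 27.0 and 22.8 CPM, with a log2 fold change of 0.02. However, 49.8% of its windows also occur in other genes, among them Gsta1 with 36%.

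Gstp1, the pi transferase and one of the most abundant members, varied more within the groups than between them. Its level was 1733.3 and 1296.2 CPM in control mice 1 and 2, 1729.3 CPM in mouse 3 and 928.2 CPM in mouse 4. Mice 1 and 3 were nearly equal, and mouse 4 was the lowest. This gave a log2 fold change of -0.19 with a 95% interval from -0.85 to 0.47, and it ran from -0.72 without mouse 3 to 0.19 without mouse 4. A near copy, Gstp2, shares 33.7% of the Gstp1 windows and was counted at 3.93 to 7.38 CPM.

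The kappa, zeta and omega classes followed the mice and not the groups. Gstk1, a mitochondrial and peroxisomal kappa enzyme, was at 113.3, 150.3, 113.7 and 147.6 CPM in mice 1 to 4. Gstz1, which isomerizes maleylacetoacetate in tyrosine breakdown, was at 618.8, 719.6, 558.3 and 742.4 CPM. For both, mice 2 and 4 were the high livers. Gsto1, an omega enzyme that reduces dehydroascorbate, ranged from 68.3 to 82.0 CPM. The 3 log2 fold changes lay between -0.04 and -0.01, and no 95% interval reached beyond -0.46 or 0.41. An overlap with Pomt2, on the opposite strand and with 261 to 323 counts, could enter the count of Gstz1, since no use of strand in the counting is stated.

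Mgst1, a microsomal transferase and peroxidase of the endoplasmic reticulum and mitochondria, was at 2803.9 and 3825.2 CPM in control and 3008.9 and 3660.6 CPM in the livers labelled HuR hKO. The groups overlapped fully, and the log2 fold change was 0.0088 with a 95% interval from -0.48 to 0.49. This sign turned with the scaling and the filter, as all values were next to 0. Mgst3, a microsomal enzyme of leukotriene conjugation, was at 10.8, 9.85, 13.7 and 11.4 CPM, which kept the groups apart by a small margin, with a log2 fold change of 0.27 and an interval from -0.13 to 0.68.

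Glutathione synthesis and reduction gave no member past an unadjusted p-value of 0.05. Gclc, the catalytic subunit of glutamate-cysteine ligase and the rate-limiting step, was at 232.8 and 211.4 CPM in control and at 236.8 and 154.5 CPM in mice 3 and 4. Mouse 3 was the highest and mouse 4 the lowest of the 4 livers. For Gclc the log2 fold change was -0.18 with a 95% interval from -0.64 to 0.28, and it was -0.54 without mouse 3. Gclm, its modifier subunit, ranged from 183.7 to 211.9 CPM, with a log2 fold change of -0.02 and an interval from -0.35 to 0.30. Gsr, which reduces oxidized glutathione, was at 64.3, 65.9, 71.6 and 54.7 CPM, so the control livers lay between mice 3 and 4 (log2 fold change -0.05). Gss, glutathione synthetase, was at 77.1 and 84.8 CPM in control and at 95.4 and 96.2 CPM in the livers labelled HuR hKO. These groups did not overlap, and the log2 fold change was 0.24 with an interval from -0.05 to 0.53. Gss overlaps Acss2, on the opposite strand and with 1106 to 1777 counts, over 22544 bases of the gene spans, introns included. Of the transcript windows of Gss, 4.15% also occur in Acss2, and whether the count of Gss holds reads of Acss2 was not tested.

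The glutathione peroxidases differed by less than their spread. Gpx1, the cytosolic peroxidase for hydrogen peroxide, was at 1889.9, 1868.2, 1922.0 and 2467.0 CPM in mice 1 to 4. Mouse 4 alone was high, and the small gap of mouse 3 above the control livers kept the groups apart. A log2 fold change of 0.22 with a 95% interval from -0.19 to 0.64 was fitted, and 0.03 without mouse 4. Gpx4, which reduces lipid hydroperoxides in membranes and thereby guards against ferroptosis, was at 206.3, 290, 276.7 and 333 CPM. Mouse 1 was low, and the groups overlapped (log2 fold change 0.30, interval -0.14 to 0.73), and the value was 0.06 without control mouse 1 and 0.57 without control mouse 2. The pseudogene Gpx4-ps2 shares 34.7% of its windows.

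The thioredoxin system was split in direction. Txnrd1, the selenoprotein that reduces thioredoxin with NADPH, was at 128.8 and 117.8 CPM in control and at 110.8 and 88.8 CPM in the livers labelled HuR hKO. Mouse 4 was the lowest and mouse 3 lay just under control mouse 2, so the groups did not overlap. Txnrd1 thus had a log2 fold change of -0.31 (SE 0.149, edgeR adjusted p = 0.684). Srxn1, sulfiredoxin, which repairs overoxidized peroxiredoxins, was at 32.8, 39.4, 47.2 and 40.9 CPM, with a log2 fold change of 0.29 (95% interval -0.06 to 0.63). Prdx1, the peroxiredoxin it acts on, was at 645.1, 760.7, 778.3 and 905 CPM, with a log2 fold change of 0.26 (interval -0.11 to 0.63). Both were highest in a liver labelled HuR hKO and lowest in control mouse 1, and neither passed an unadjusted p-value of 0.05. Txn1, thioredoxin itself, ranged from 241.6 to 304.5 CPM, with overlapping groups and a log2 fold change of 0.09.

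Cat, the peroxisomal catalase, was at 2722.8 and 2607.0 CPM in control and at 2103.5 and 2320.2 CPM in the livers labelled HuR hKO. Both were lower than both control livers, and the log2 fold change was -0.27 (SE 0.164, edgeR adjusted p = 0.756). With each mouse left out it lay between -0.34 and -0.22. Sod1, the cytosolic superoxide dismutase, was at 850.1, 1111.6, 1004.9 and 1116.3 CPM, and Sod2, the mitochondrial one, at 182.3, 207.3, 198.8 and 216.9 CPM. Both genes were lowest in mouse 1 and the groups overlapped, with log2 fold changes of 0.11 and 0.09.

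Nqo1, the quinone reductase that is often taken as the marker of NRF2 activity, was the least abundant member per kilobase. It had 44, 92, 87 and 121 counts in mice 1 to 4, or 3.31, 6.87, 6.07 and 6.42 CPM. Control mouse 1 was low and the other 3 livers were nearly equal. The log2 fold change was 0.30 with a 95% interval from -0.46 to 1.05, and it was -0.15 without control mouse 1 and 0.92 without control mouse 2. Ephx1, the microsomal epoxide hydrolase, was at 483.6, 470.8, 575.7 and 492.5 CPM, with mouse 3 the highest and a log2 fold change of 0.16 (interval -0.18 to 0.50).

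The transcripts of the regulators were level between the groups. Nfe2l2, the gene of NRF2, was at 61.1 and 83.8 CPM in control and at 73.7 and 73.0 CPM in the livers labelled HuR hKO. Both of these values lay between the control values. Its log2 fold change was 0.02 with a 95% interval from -0.36 to 0.40. Keap1 was at 68.3, 75.6, 71.4 and 68.5 CPM, with a log2 fold change of -0.04 and an interval from -0.33 to 0.25. NRF2 is mainly controlled as a protein, which RNA counts do not measure.

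The core of the antioxidant response element, TGACNNNGC, was searched on both strands of the RefSeq promoter windows (GRCm38.p6), each running from 250 bases before a transcription start to 50 after it. Windows were found for 32 members, and those of Gclc, Gsr, Gsta4 and Gstt2 were not analysed here. The core was in a window of 10 of the 32 members (31.2%), beside 3781 of 27025 genes (14%), and taken per window in 22.2% of 45 member windows and 12.4% of 32851 windows. The 10 matches are printed below because they show which letters fill the free positions, 5′ to 3′ on the strand that reads the core, with the 9 bases of the core in capitals and 8 bases on either side.
Prdx1: acgggggaTGACTCAGCgctttccc
Srxn1: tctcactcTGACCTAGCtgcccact
Txnrd1: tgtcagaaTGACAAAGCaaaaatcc
Gclm: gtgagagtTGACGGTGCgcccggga
Gsta3: ctcaggcaTGACATTGCatttttct
Gstm5: ccgcccacTGACCACGCggagggcg
Gstm7: tgaagaccTGACAAAGCgaagccaa
Mgst1: ccgcctccTGACCGTGCcaagcccc
Sod1: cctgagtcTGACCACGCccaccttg
Nfe2l2: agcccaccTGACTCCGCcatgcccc
The core of Prdx1 lies at chr4:116685466-116685474 on the minus strand, 133 bases before the start, and its letters also hold TGACTCA, the consensus of the AP-1 factors. That of Srxn1 lies at chr2:152105552-152105560 on the minus strand, 28 bases after the start, and that of Txnrd1 at chr10:82859114-82859122 on the minus strand, 92 bases before a start inside the gene. The cores of Gclm (chr3:122245423-122245431, minus strand) and Gsta3 (chr1:21240464-21240472, plus strand) lie 134 and 121 bases before their starts. Of the 10 members with a match, Prdx1 and Srxn1 were apart in the higher direction, against 19.3% of all genes tested. Txnrd1 was apart in the lower direction, against 18.8%. The windows of Gstm2 and Gstm3 hold no such letters, and a link between a match and a direction was not tested. A match of this kind is a description of the sequence and not a bound site.

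For most members the mice of a group differed by more than the groups. The difference between mice 3 and 4 exceeded the group difference for 23 members, and that between mice 1 and 2 did so for 22. The group difference was larger than both for 7 of the 36, Gstt2, Gsta4, Mgst3, Gss, Srxn1, Prdx1 and Cat, beside 25.3% of all genes tested. Control mouse 1 had the lowest level of the 4 livers for 21 members (58.3%), beside 28.3% of all genes tested, and control mouse 2 was above control mouse 1 for 25 members. Within the livers labelled HuR hKO the members went both ways, with 17 higher in mouse 3 and 19 higher in mouse 4. Gstm3, Gstp1, Gstm1 and Gclc were the members that stood highest in mouse 3 relative to mouse 4, by 1.13, 0.90, 0.62 and 0.62 on the log2 scale. Gstt3, Gstt1 and Gstz1 stood highest in mouse 4, with differences of mouse 3 minus mouse 4 of -0.55, -0.42 and -0.41.

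**Figure D3:**
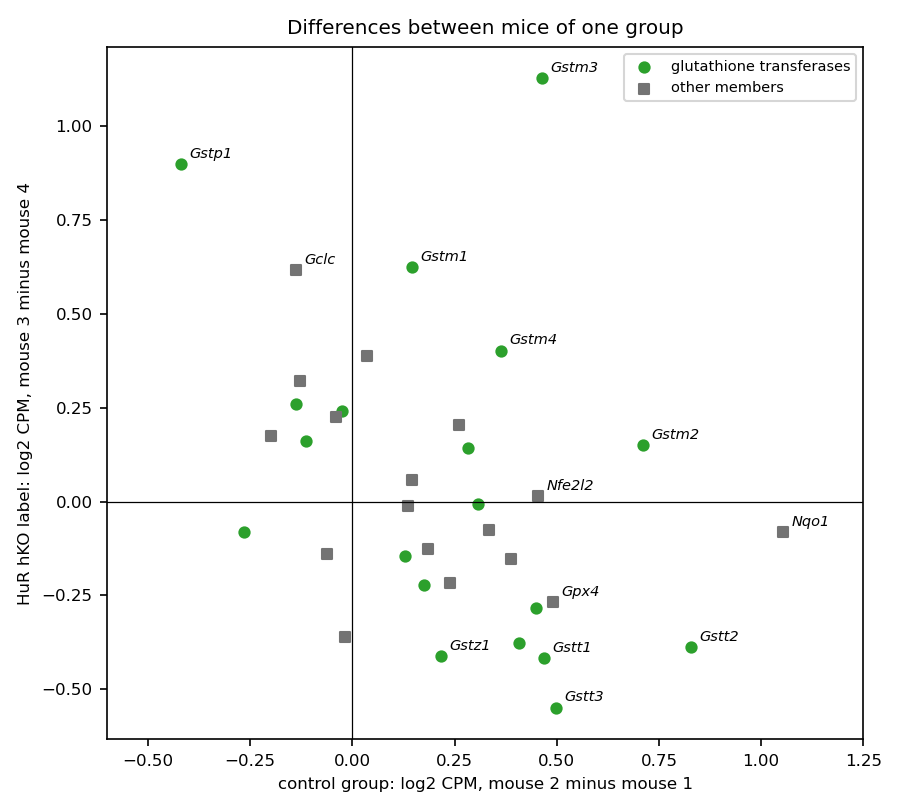
Each point is a member, with the log2 CPM of control mouse 2 minus control mouse 1 on the horizontal axis and that of mouse 3 minus mouse 4, both labelled HuR hKO, on the vertical axis. Of the 36 points, 25 lie to the right of 0, and Gstm3 and Gstp1 lie highest, at 1.13 and 0.90.

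**Figure D4:**
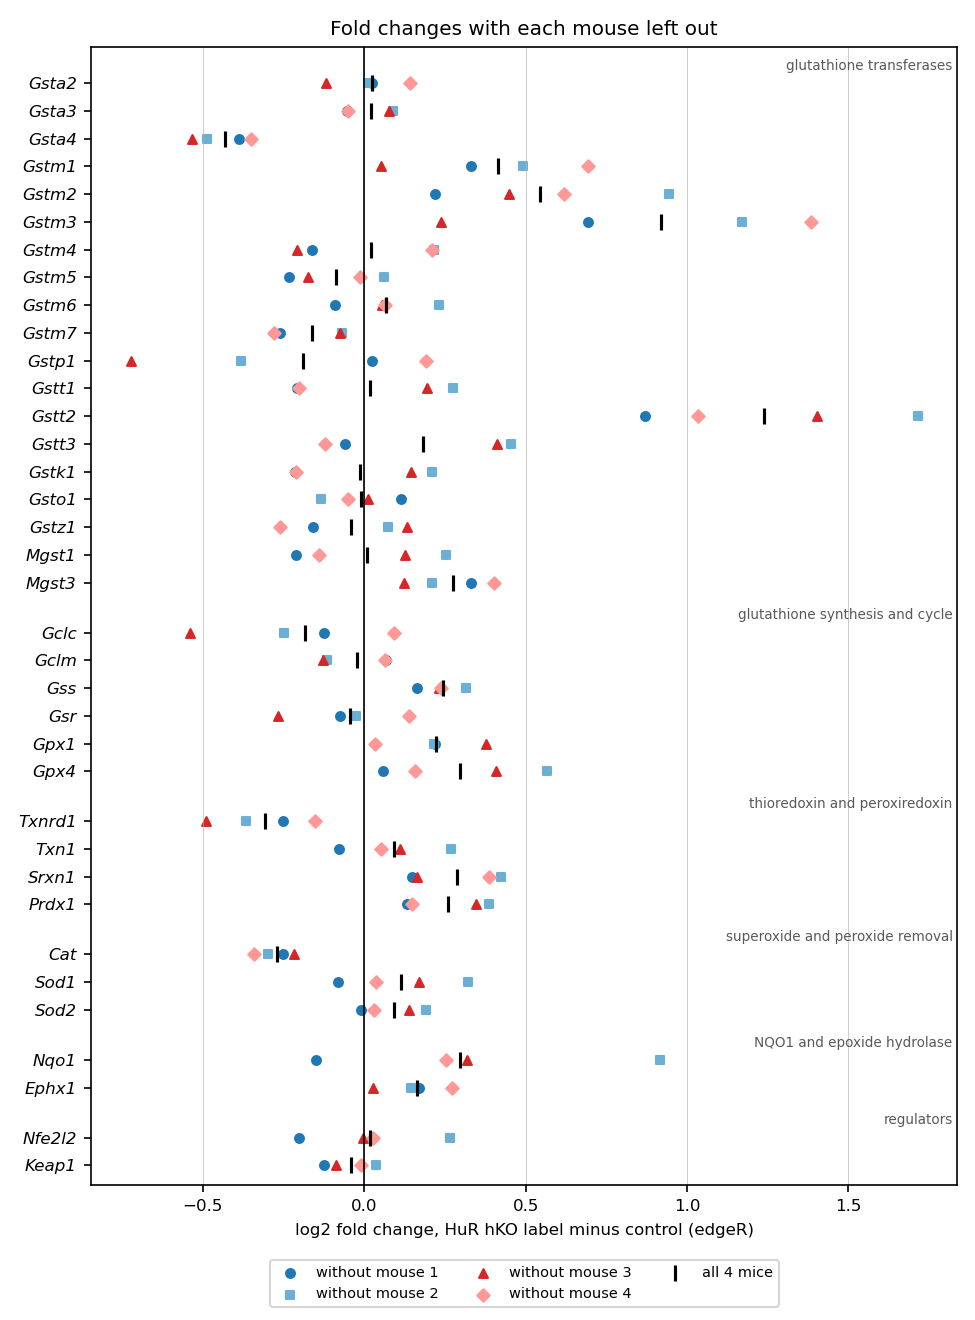
The edgeR log2 fold change of each member (horizontal axis) is plotted with all 4 mice as a black line and with each mouse left out as a coloured symbol. The symbols of 21 members fall on both sides of 0, while those of Gstt2 stay between 0.87 and 1.71.

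Other genes of the same pathways were read from a list of 84 genes of further glutathione transferases, glutathione turnover, cysteine supply, further peroxidases and redoxins, and further NRF2 targets and regulators, of which 75 were tested. The study threshold was passed by 1 of the 75 in the higher direction, Gsta1, and by 1 in the lower, Osgin1, beside 1.21% and 0.915% of all genes. Without adjustment, 8 in the higher direction and 1 in the lower had a p-value under 0.05, beside 4.04% and 3.39% of all genes, and the median log2 fold change was 0.106, beside 0.002. After adjustment 0 passed in edgeR or limma-voom, 1 (Osgin1) in DESeq2's Wald test, and 2 (Gsta1 and Osgin1) in edgeR without the low-count filter. Gsta1, an alpha transferase, was at 3.46, 5.75, 17.0 and 6.90 CPM in mice 1 to 4, the pattern of Gstm3 with mouse 3 high, and its log2 fold change of 1.36 (SE 0.427, edgeR adjusted p = 0.517) was 0.57 without mouse 3. Since 90.5% of its windows also occur in other genes, chiefly Gm3776, this count is uncertain. Osgin1, an NRF2 target linked to growth inhibition under oxidative stress, was at 87.7 and 87.8 CPM in control and at 59.4 and 36.7 CPM in the livers labelled HuR hKO. Osgin1 had a log2 fold change of -0.87 (SE 0.211, edgeR adjusted p = 0.351), and one of -0.56 without mouse 4.

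The other genes named from that list had smaller differences, all in the higher direction. Their groups did not overlap, but they were chosen by small unadjusted p-values, which makes such separation likely. Of the 75 genes tested, 22 were apart in the higher direction, against 19.3% of all genes. Gnmt, which uses S-adenosylmethionine to methylate glycine, was at 1257.5 and 1493.3 CPM in control and at 1854.2 and 2378.6 CPM in mice 3 and 4, which is 0.62 on the log2 scale. Ggt6, of the gamma-glutamyltransferase family, had a log2 fold change of 0.57, and Gstp3, a pi transferase, one of 0.55. Htatip2 (0.50), Pgd (0.49), an NADPH-producing enzyme of the pentose phosphate pathway, and Ftl1 (0.46), the ferritin light chain, completed these genes. Without control mouse 1, the log2 fold changes of Gnmt, Ggt6, Gstp3, Htatip2, Pgd and Ftl1 were 0.49, 0.44, 0.29, 0.26, 0.32 and 0.34, and Ggt6 alone of them kept an unadjusted p-value under 0.05. Their adjusted p-values by edgeR's quasi-likelihood test lay between 0.409 and 0.613.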

How the data were processed

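Liver RNA-seq of 2 control and 2 HuR hKO mice was analysed. The authors deposited whole-number counts for each Ensembl gene and mouse, without normalization. The submitters' processing notes name RSEM and GRCm38 without a role, and whether the counts are reads or rounded estimates, and whether they use strand, is not given in the sources used here. Every column was matched to a mouse. Symbols were found for 46005 of 46603 identifiers, and coordinates are those of GENCODE M21. The counts of every pair of libraries differed by more than the sampling noise (chi-square per degree of freedom of 21.2 to 32.7).

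Genes were kept by edgeR's filterByExpr (minimum count 10, total 15), scaled with TMM factors (0.957 to 1.04) and compared with the quasi-likelihood test of edgeR 4.0.16 (R 4.3.3), with Benjamini-Hochberg adjustment over 13001 genes and no covariate. The standard error is the log2 fold change divided by the square root of F, and intervals are at 95%. The procedure was tested on simulated data. Alternatives were DESeq2 1.42.0 size factors, upper quartile factors, total counts only, no filter, at least 10 counts in every sample, the robust test, the DESeq2 Wald test, limma-voom (limma 3.58.1) and leaving out each mouse. Near copies were described by 50-base windows of GENCODE transcripts shared with other genes, in place of the protein identity that had been planned. Every member is named, with Elavl1 and, of the wider list, the genes past the study threshold and those with the smallest unadjusted p-values under 0.05, 8 in all. The members and lists were chosen with earlier results of these data known. The labels name each mouse as a separate animal.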

Additional observations from a re-analysis of the deposited data

How the results depend on the processing

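Over the 12 alternatives, 15 of the 36 members kept their direction, and 21 changed it in at least 1, which for all but Mgst1 took leaving out a mouse. Mgst1 (log2 fold change 0.0088) lay at -0.0018 with upper quartile factors, -0.0002 with total counts only, -0.0036 without the low-count filter and -0.0007 with at least 10 counts in every sample. With each mouse left out in turn, a fit that assumes the lone sample of a group to vary like the pair in the other, the log2 fold changes of these members ran between these values, Gsta2 (-0.12 to 0.14), Gsta3 (-0.053 to 0.089), Gstm4 (-0.21 to 0.22), Gstm5 (-0.23 to 0.063), Gstm6 (-0.091 to 0.23), Gstp1 (-0.72 to 0.19), Gstt1 (-0.21 to 0.27), Gstt3 (-0.12 to 0.45), Gstk1 (-0.21 to 0.21), Gsto1 (-0.13 to 0.12), Gstz1 (-0.26 to 0.13), Mgst1 (-0.21 to 0.25), Nqo1 (-0.15 to 0.92), Gclc (-0.54 to 0.094), Gclm (-0.13 to 0.068), Gsr (-0.27 to 0.14), Txn1 (-0.079 to 0.27), Sod1 (-0.081 to 0.32), Sod2 (-0.0092 to 0.19), Nfe2l2 (-0.20 to 0.27) and Keap1 (-0.12 to 0.037).

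The members past the study threshold, 2 with all mice, were 1 with the robust test and with limma-voom, which lost Gstm3, and 1 to 4 with a mouse left out. The members with an adjusted p-value under 0.05, 0 in the edgeR fit, were 1 (Gstt2) without the low-count filter (adjusted p = 0.00051 by edgeR's quasi-likelihood test) and with the DESeq2 Wald test (adjusted p = 0.000392), and 0 to 1 with a mouse left out. The smallest adjusted p of a member lay between 0.139 and 0.408 in the other settings with all mice. With a mouse left out, the members above 0 numbered 15 to 27, the median log2 fold change lay between -0.068 and 0.212, and the wider list had 0 to 3 genes past the threshold in the higher direction and 1 to 2 in the lower. No paired analysis was possible because the groups share no mouse number. The lowest count of a member in a library was 44, for Nqo1, and the limits set by depth and by the number of mice were not compared. Of the members that kept their direction, with each mouse left out Mgst3 lay between 0.12 and 0.40, Gss between 0.16 and 0.31, Srxn1 between 0.15 and 0.43, Prdx1 between 0.13 and 0.39, Ephx1 between 0.03 and 0.27, Txnrd1 between -0.49 and -0.15 and Gstm7 between -0.28 and -0.07.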
